A study of Mus musculus with 18 samples.

Results

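Mitochondrial ribosomal proteins are the protein subunits of the ribosome that works inside mitochondria. Their genes were taken here as every gene whose symbol starts with Mrpl or Mrps followed by a digit. In all, 73 such genes were listed in at least 1 of 3 tables that compare S51A with wild-type fibroblasts, out of 10110 distinct symbols in those tables. RefSeq holds 78 protein-coding mouse genes that match the rule, 49 named for the large and 29 for the small subunit. The other 5 (Mrpl9, Mrpl44, Mrpl48, Mrpl50 and Mrpl58) were listed under these symbols in no table, and none of the 6 matching RefSeq pseudogenes was listed.

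The study sequenced polyadenylated RNA of 2 immortalized mouse embryonic fibroblast lines, 1 wild type (WT) and 1 with the S51A form of eIF2α. In S51A an alanine replaces the serine that stress kinases phosphorylate to slow the start of translation. Cells of each line were left untreated (0 min) or received the oxidant hydrogen peroxide at 500 µM for 15 or 120 min. This gives 6 groups, with 3 samples a group and 18 in all by the labels, although the design text speaks of duplicates. With 1 line for each genotype, effects of genotype and of line cannot be told apart, and no label says that samples came from separate cultures.

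The tables give 1 value per gene and group in FPKM, a read count scaled to transcript length and library size. No spread between samples and no depth can be given. Each table holds only genes with a significant difference between lines at that time by the authors' call, all with a deposited q-value of at most 0.05. "Lower" and "higher" below therefore mean lower or higher in S51A by the authors' call, and a gene not listed may or may not have been equal. Of 12 fibroblast markers, 10, 10 and 8 were listed at 0, 15 and 120 min, and 7, 7 and 6 of these were higher in S51A. Col1a2 was at 155 and 1097 FPKM in WT and S51A at 0 min, while Vim was lower, at 1872 and 1075 FPKM. Of markers of other cell types, epithelial Krt19 (1 of 5 listed) was higher each time, at 6.06 and 8.17 FPKM at 0 min and 8.40 and 21.7 FPKM at 120 min. Of 4 muscle markers 1, 3 and 2 were listed, all higher, with Acta2 at 23.6 and 111 FPKM at 0 min and at 24.1 and 163 FPKM at 120 min. Of 4 blood markers Cd68 alone was listed, lower at 0 min, and none of 4 endothelial or 3 pluripotency markers was. The part of these marker differences in the results was not tested. Eif2s1, which encodes eIF2α, was at 91.8 and 45.3 FPKM in untreated WT and S51A, which checks no label because a substitution need not alter the transcript level.

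The mitochondrial ribosome translates the few proteins encoded by mitochondrial DNA, all of them core subunits of the respiratory chain and ATP synthase. Its RNAs come from mitochondrial DNA, but all its proteins are encoded in the nucleus, made in the cytosol and imported. Some are homologues of bacterial ribosomal proteins and others were added in the mitochondrial lineage. Many promoters of these genes are known to hold sites for the nuclear respiratory factor NRF1, for ETS proteins such as GABP, and for YY1.

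Promoter sequence is shown for 5 of the genes that the results turn on: Mrps18a and Mrps22, lower at every time, Mrpl17, lower at 0 and 15 min only, Mrpl52, which went from lower to higher, and Mrps18c, higher at 120 min only. The stretches are from RefSeq on GRCm38.p6, are read 5′ to 3′ on the gene's strand, lie before the start that RefSeq gives and hold no exon annotated in GENCODE M21. Capitals mark the motif TGCGCA of NRF1 or CCGGAAG of ETS proteins, which reads CTTCCGG on the other strand.
Mrps18a, chr17:46110866-46110985, plus strand: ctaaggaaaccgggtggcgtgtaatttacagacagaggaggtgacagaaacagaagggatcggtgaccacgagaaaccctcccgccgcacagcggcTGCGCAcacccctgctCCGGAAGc
Mrps22, chr9:98601680-98601799, minus strand: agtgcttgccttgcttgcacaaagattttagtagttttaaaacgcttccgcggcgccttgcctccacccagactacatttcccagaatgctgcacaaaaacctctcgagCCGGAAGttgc
Mrpl17, chr7:105811100-105811219, minus strand: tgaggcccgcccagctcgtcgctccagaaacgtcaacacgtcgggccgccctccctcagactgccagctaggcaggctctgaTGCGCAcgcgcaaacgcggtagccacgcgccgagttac
Mrpl52, chr14:54426789-54426908, plus strand: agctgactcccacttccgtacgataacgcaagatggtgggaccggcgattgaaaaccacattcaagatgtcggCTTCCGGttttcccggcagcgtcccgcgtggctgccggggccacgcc
Mrps18c, chr5:100798599-100798626, plus strand: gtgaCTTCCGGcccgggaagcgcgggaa

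These motifs were searched on both strands from 250 bases before to 50 bases after the start of each gene, a window that RefSeq gave for 69 of the 78 genes. CCGGAAG was in 25 windows (36.2%), against 11.9% of the windows of 17492 protein-coding genes and 18.4% of those of 5794 genes listed at 0 min. TGCGCA was in 21 (30.4%), against 10.1% and 14.5%. GCGCATGC, a longer NRF1 motif, was in 8 (11.6%), against 3.61% and 5.68%, and it overlaps TGCGCA where a T comes before it. AAGATGGC, of YY1, was in 12 (17.4%), against 3.22% and 4.92%. The exact run ACTACAAT, of THAP11 and ZNF143, was in none of the 69 and in 0.880% of all windows. Other forms of that site were not searched. TCGCGAGA was in 1 (1.45%), against 1.51%. At least 1 NRF1, ETS or YY1 motif was in 43 windows (62.3%), against 22.3% of all and 32.8% of those listed at 0 min. The members' windows also had more CpG pairs for their base composition (median observed over expected 0.818, against 0.576 over all), and its part in the motif shares was not tested. Any such motif was present in 10 of 14 windows of genes lower at 120 min and in 22 of 30 of genes higher then. A match is a run of letters and not a measured binding site.

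Before peroxide, 59 of the 73 genes were listed, against 76.3% of 9889 genes listed at any time (symbols beginning with a digit left out), and all 59 were lower in S51A. Of all 7555 entries at 0 min, 50.4% were lower and 49.6% higher. The median log2 ratio of S51A to WT over the 59 was -0.88, a 1.84-fold difference, and it ranged from -1.99 to -0.34, while the median over all entries was -0.27. In WT the 59 levels ran from 6.36 FPKM (Mrps36) to 413 FPKM (Mrpl33) with a median of 63.6 FPKM, and in S51A from 4.23 to 181 FPKM with a median of 34.3 FPKM. The order of levels was largely shared between the lines, with a Spearman rho of 0.95 over the 59 genes, which come from the same libraries. The difference was at least 2-fold (a log2 ratio of at least 1.00 in size) for 21 of them. Of all entries 37.0% were past that fold in either direction and 15.0% were past it and lower. In bulk RNA, fewer cells that use a gene and less of its RNA per cell cannot be told apart.

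**Figure D1:**
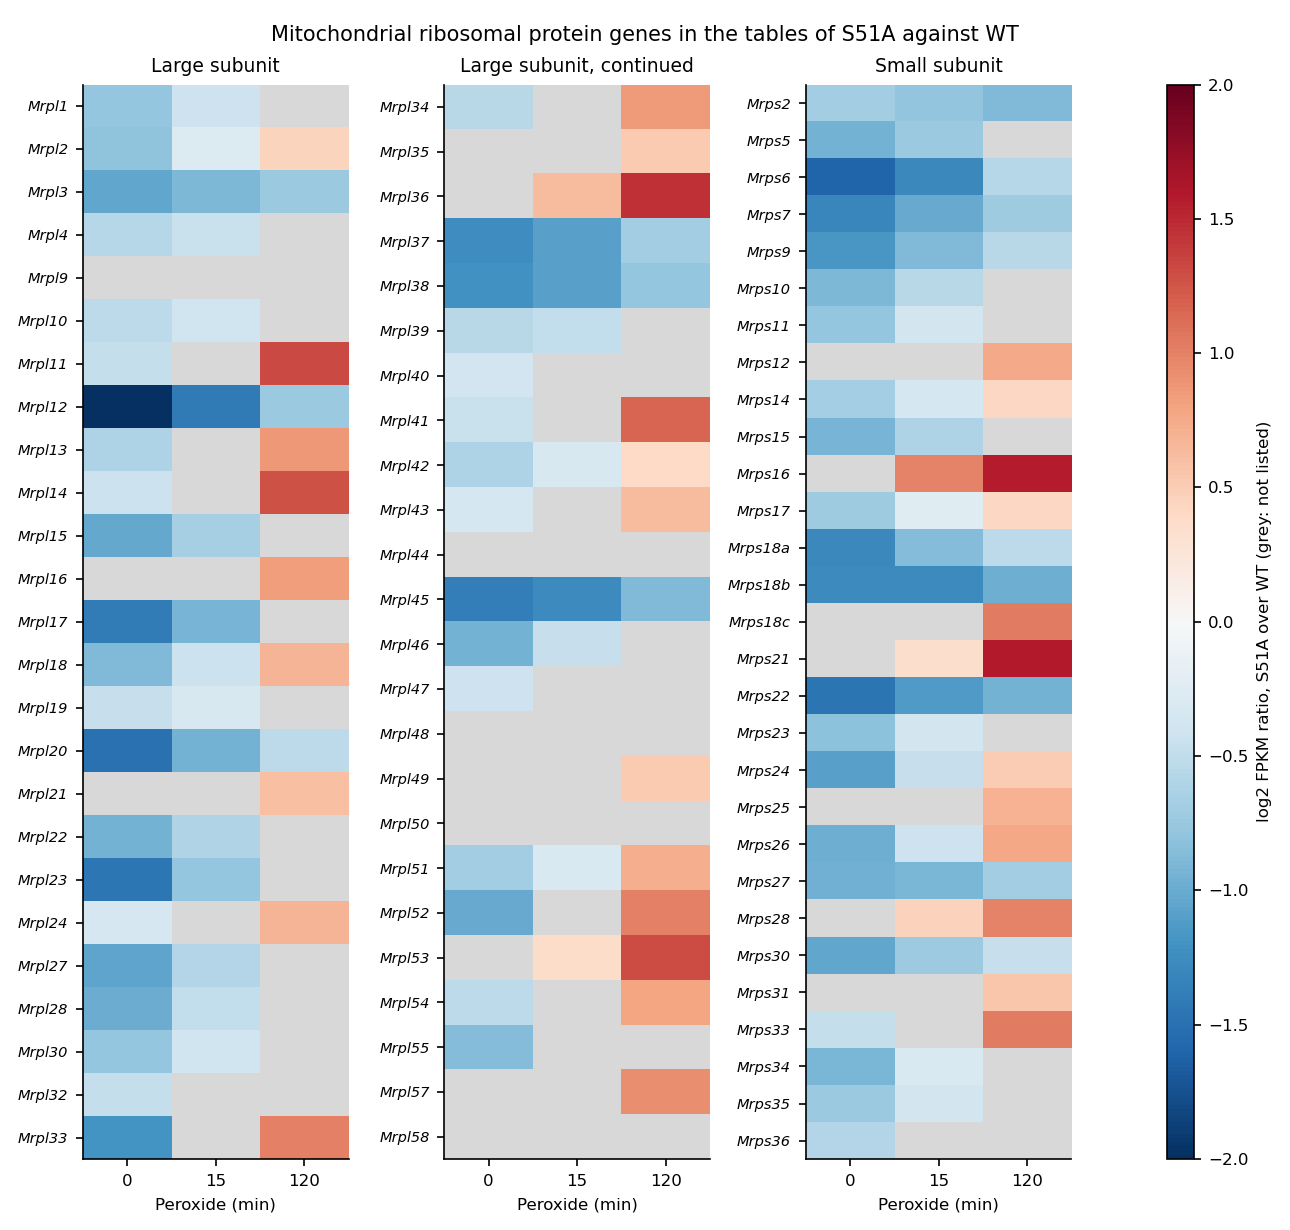
Log2 FPKM ratio of S51A over WT for all 78 mitochondrial ribosomal protein genes at 0, 15 and 120 min of peroxide, with blue for lower, red for higher and grey for genes not listed under that symbol. Every listed gene is blue at 0 min, 43 are blue and 5 red at 15 min, and 15 are blue and 33 red at 120 min.

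Mrpl12 had the lowest ratio of all at 0 min. Its product forms the stalk of the large subunit, which recruits translation factors, and is known to bind the mitochondrial RNA polymerase as well. Mrpl12 (chromosome 11, 120484669 to 120488754, mm10) was at 357 and 89.9 FPKM in WT and S51A at 0 min, 3.97-fold lower. Its levels were 274 and 103 FPKM at 15 min and 276 and 164 FPKM at 120 min, a difference of 2.68-fold and then 1.68-fold. S51A was thus below WT at each time, with a smaller gap at each later time. Mrpl10, which anchors the stalk, was at 65.8 and 45.6 FPKM in WT and S51A at 0 min and at 64.4 and 48.8 FPKM at 15 min. It was not listed at 120 min. Mrpl11, at the base of the stalk (chromosome 19, 4962306 to 4966995), was at 20.3 and 14.6 FPKM at 0 min but at 15.2 and 38.1 FPKM at 120 min, 2.50-fold higher. The calls of the stalk genes therefore differed at 120 min, with 1 lower, 1 higher and 1 not listed. The log2 ratios of Mrpl12 and Mrpl11 were nonetheless both higher at 120 min than at 0 min, by 1.24 and 1.79.

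Other large-subunit genes homologous to bacterial ones ranged widely. Mrpl3, close to the peptidyl transferase centre where peptide bonds are made, was at 89.9 and 43.7 FPKM in WT and S51A at 0 min, at 85.0 and 45.6 FPKM at 15 min, and at 95.7 and 56.9 FPKM at 120 min. Mrpl2, also near that centre (chromosome 17, 46646248 to 46650132), was at 80.4 and 45.9 FPKM at 0 min, at 62.7 and 51.6 FPKM at 15 min, and at 62.7 and 85.6 FPKM at 120 min. Mrpl3 was lower each time, whereas Mrpl2 was lower at 0 and 15 min and then higher. Mrpl20, the homologue of bacterial L20 (chromosome 4, 155803618 to 155808829), was at 343 and 121 FPKM in WT and S51A at 0 min, at 272 and 141 FPKM at 15 min, and at 307 and 212 FPKM at 120 min. Mrpl23, at the rim of the exit tunnel of the nascent peptide, was at 14.8 and 5.46 FPKM at 0 min and at 11.6 and 6.77 FPKM at 15 min. Mrpl17, also near the tunnel exit, was at 17.3 and 6.59 FPKM at 0 min and at 14.5 and 7.57 FPKM at 15 min. Mrpl23 and Mrpl17 were among the least abundant genes listed and among the 6 lowest ratios at 0 min, and neither was listed at 120 min.

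Mrpl45, mitochondria-specific, sits at the tunnel exit and helps tether the ribosome to the inner membrane. Mrpl45 (chromosome 11, 97315716 to 97329920) was at 57.7 and 22.2 FPKM in WT and S51A at 0 min, at 52.7 and 21.9 FPKM at 15 min, and at 64.0 and 34.8 FPKM at 120 min. Mrpl37 and Mrpl38, further proteins without a bacterial homologue, followed it closely. Mrpl37 was at 72.5 and 30.7 FPKM at 0 min, at 65.3 and 30.7 FPKM at 15 min and at 71.0 and 44.3 FPKM at 120 min. Mrpl38 was at 56.1 and 24.4 FPKM, at 56.5 and 26.5 FPKM, and at 56.1 and 33.1 FPKM. WT levels of Mrpl45, Mrpl37 and Mrpl38 differed by log2 0.15, -0.03 and 0.00 between 0 and 120 min.

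In the small subunit, Mrps6, a homologue of bacterial S6 (chromosome 16, 92058322 to 92112227), had the lowest ratio at 0 min, with 296 and 97.7 FPKM in WT and S51A. Its levels were 254 and 104 FPKM at 15 min and 309 and 208 FPKM at 120 min. Mrps22, a mitochondria-specific subunit whose human gene is mutated in an inherited respiratory chain deficiency (chromosome 9, 98588730 to 98601679), was at 84.4 and 30.5 FPKM, at 77.2 and 35.0 FPKM, and at 73.0 and 38.3 FPKM. Mrps7, which contacts the tRNA exit site in bacterial ribosomes, was at 145 and 58.1 FPKM, at 127 and 63.6 FPKM, and at 134 and 82.1 FPKM. For all 3 genes S51A stayed below WT at every time. Mrps2 behaved differently from the rest: its levels were 32.7 and 20.1 FPKM in WT and S51A at 0 min, 35.0 and 20.1 FPKM at 15 min, and 28.1 and 15.1 FPKM at 120 min. It was the only one of 34 genes listed at 0 and 120 min whose S51A level was lower at 120 min than at 0 min (log2 -0.41), and the only one whose ratio was lower at 120 min (log2 -0.89 against -0.70).

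Mrps9, Mrps27 and Mrps30 complete the 15 genes lower at all 3 times, together with the Mrps18 genes below. Mrps9 was at 64.9 and 28.8 FPKM in WT and S51A at 0 min and at 56.9 and 38.9 FPKM at 120 min. Mrps27, a member of the pentatricopeptide repeat family of RNA-binding proteins, was at 38.1 and 19.7 FPKM and then at 37.3 and 23.1 FPKM. Mrps30, whose product is found in the large subunit despite its symbol, was at 61.8 and 30.1 FPKM and then at 63.1 and 45.9 FPKM.

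The 3 Mrps18 paralogues, which resemble bacterial S18, parted. Only Mrps18c is counted among the bacterial homologues in the class counts given later, because it alone takes the place of S18, and Mrps18a and Mrps18b are counted as mitochondria-specific. Mrps18a, whose product also sits in the large subunit (chromosome 17, 46111004 to 46128908), was at 109 and 44.6 FPKM in WT and S51A at 0 min, at 86.2 and 47.5 FPKM at 15 min, and at 94.4 and 65.8 FPKM at 120 min. Mrps18b (chromosome 17, 35910385 to 35916369) was at 44.3 and 18.1 FPKM, at 42.2 and 17.5 FPKM, and at 39.9 and 20.4 FPKM, the lowest ratio of any of these genes at 120 min (log2 -0.98). Mrps18c, on chromosome 5 (100798759 to 100804467) and closest to the bacterial protein, was listed only at 120 min, at 137 and 282 FPKM in WT and S51A. At 120 min 2 paralogues were thus lower and 1 was 2.06-fold higher.

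At 15 min 48 of the 73 genes were listed, against 82.1% of the 9889 genes, with 43 lower and 5 higher. Of all 8308 entries at that time 50.1% were lower and 49.9% higher. The median log2 ratio over the 48 was -0.49, with a range from -1.42 to 0.99, and -0.20 over all entries. All 43 lower genes were also lower at 0 min, and 8 of the 48 differed by at least 2-fold, all lower. Of all entries 32.5% were past that fold in either direction and 12.3% were past it and lower. The 5 higher genes had not been listed at 0 min and were higher again at 120 min. Mrps16, a homologue of bacterial S16 (chromosome 14, 20391231 to 20393555), was at 47.5 and 94.4 FPKM in WT and S51A at 15 min and at 56.9 and 169 FPKM at 120 min. Mrps21, a homologue of bacterial S21, was at 102 and 130 FPKM and then at 99.0 and 296 FPKM. These were the highest ratios at 120 min, at 2.97-fold and 2.99-fold. Mrpl36, a small homologue of bacterial L36, was at 17.9 and 27.7 FPKM and then at 16.0 and 44.0 FPKM. Mrpl53, mitochondria-specific, was at 59.7 and 76.6 FPKM and then at 65.3 and 162 FPKM, and Mrps28 was at 30.7 and 42.2 FPKM and then at 39.4 and 78.2 FPKM. In all 5 the gap between the lines was wider at 120 min than at 15 min.

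At 120 min 48 genes were again listed, against 60.3% of the 9889 genes, but now 33 were higher and 15 lower. Of all 6119 entries 49.1% were lower and 50.9% higher. The median log2 ratio was 0.61, with a range from -0.98 to 1.58, and 0.41 over all entries. Median levels over the 48 were 58.9 and 63.8 FPKM in WT and S51A, and 11 genes had a deposited log2 ratio of at least 1.00 in size, each of them higher. Of all entries 47.3% were past that ratio in either direction and 26.5% were past it and higher, so the share among these genes was not larger. Of the 34 genes lower at 0 min and listed at 120 min, 15 were lower again and 19 were higher. There were 2227 genes lower at 0 min, listed at 120 min and above 0 FPKM in both lines at both times. Of these, 449 (20.2%) were higher at 120 min, against 55.9% of the 34. Among all 2618 genes lower at 15 min and listed at 120 min, 179 (6.84%) were higher at 120 min, against 8 of 23 members (34.8%). The difference between these shares was not tested. The remaining 14 of the 33 higher genes had not been listed at 0 min.

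**Figure D2:**
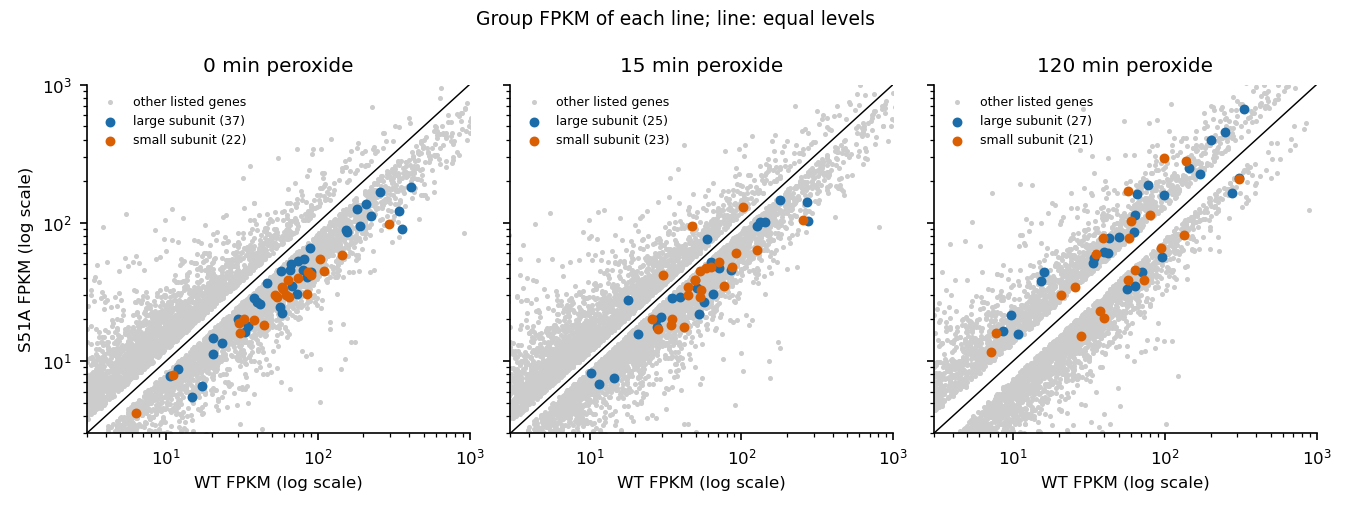
FPKM in S51A (vertical) against WT (horizontal), both on log scales, at 0, 15 and 120 min, with large-subunit genes in blue, small-subunit genes in orange, other listed genes in grey and the line of equal levels in black. Entries beyond the axes are not drawn, and the empty band along the line is where genes were not listed. All coloured points lie below the line at 0 min, and 33 of 48 lie above it at 120 min.

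The 19 genes that went from lower to higher included the most abundant one. Mrpl33, a small homologue of bacterial L33 (chromosome 5, 31613951 to 31622644), was at 413 and 181 FPKM in WT and S51A at 0 min and at 333 and 666 FPKM at 120 min. Mrpl52, mitochondria-specific (chromosome 14, 54426909 to 54429750), was at 224 and 111 FPKM and then at 201 and 399 FPKM. Both were about as far above WT at 120 min, at 2.00-fold and 1.99-fold, as they had been below it at 0 min, at 2.28-fold and 2.01-fold. Mrpl13 was at 256 and 167 FPKM and then at 249 and 455 FPKM. Mrpl14 was at 89.3 and 66.3 FPKM and then at 77.7 and 187 FPKM. Mrpl41 was at 12.0 and 8.82 FPKM and then at 9.65 and 21.6 FPKM. Mrpl13 and Mrpl14 are homologues of bacterial proteins and Mrpl41 is mitochondria-specific, so both kinds took part.

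Of these 19, 8 were also listed at 15 min, each lower then with a smaller gap than at 0 min. Mrps26, mitochondria-specific, was at 86.2 and 43.7 FPKM in WT and S51A at 0 min, at 63.1 and 47.5 FPKM at 15 min, and at 59.7 and 103 FPKM at 120 min. Mrps24 was at 89.9 and 42.2 FPKM, at 71.5 and 51.6 FPKM, and at 79.3 and 113 FPKM. Mrpl18, a homologue of a bacterial protein that binds 5S RNA, was at 156 and 85.6 FPKM, at 127 and 94.4 FPKM, and at 99.0 and 158 FPKM. These 3 had log2 ratios that were 1.76, 1.59 and 1.56 higher at 120 min than at 0 min, the largest such differences among the genes listed at all 3 times. Mrpl51 was at 41.6 and 25.8 FPKM, at 34.8 and 28.4 FPKM, and at 34.1 and 56.1 FPKM. Mrpl42 was at 209 and 137 FPKM, at 180 and 145 FPKM, and at 171 and 226 FPKM. The remaining genes here are small-subunit homologues of bacterial S14 and S17. Mrps14 was at 30.3 and 18.9 FPKM, at 25.6 and 20.3 FPKM, and at 25.6 and 34.1 FPKM. Mrps17 was at 63.6 and 38.9 FPKM, at 53.1 and 44.9 FPKM, and at 58.1 and 77.7 FPKM. In each of these 7 genes the lines came closer at 15 min and had changed order by 120 min, as in Mrpl2.

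The other 6 of the 19 were, like Mrpl33, Mrpl52, Mrpl13, Mrpl14 and Mrpl41, lower at 0 min, not listed at 15 min and higher at 120 min. Mrpl34 was at 81.0 and 54.9 FPKM in WT and S51A and then at 63.6 and 115 FPKM, and Mrpl54 at 182 and 126 FPKM and then at 144 and 249 FPKM. Mrps33 was at 11.1 and 7.94 FPKM and then at 7.73 and 16.0 FPKM. Mrpl24, close to the exit tunnel, was at 46.5 and 36.8 FPKM and then at 49.5 and 79.3 FPKM, and Mrpl43 was at 56.9 and 44.6 FPKM and then at 39.7 and 61.8 FPKM. Mrpl24 had the smallest difference of the 59 at 0 min. Mrpl11 of the stalk is the last of these 6.

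Higher at 120 min and listed at no other time were 9 genes, Mrpl16, Mrpl21, Mrpl35, Mrpl49, Mrpl57, Mrps12, Mrps18c, Mrps25 and Mrps31. Their log2 ratios ran from 0.53 to 1.04. Mrps12, which lies at the decoding centre where codon and anticodon meet, was at 35.3 and 59.7 FPKM in WT and S51A. Lower at 0 and 15 min and not listed at 120 min were 20 genes, Mrpl1, Mrpl4, Mrpl10, Mrpl15, Mrpl17, Mrpl19, Mrpl22, Mrpl23, Mrpl27, Mrpl28, Mrpl30, Mrpl39, Mrpl46, Mrps5, Mrps10, Mrps11, Mrps15, Mrps23, Mrps34 and Mrps35. Their log2 ratios at 0 min ran from -1.44 in Mrpl23 to -0.46 in Mrpl19. Lower at 0 min and listed at no other time were 5, Mrpl32, Mrpl40, Mrpl47, Mrpl55 and Mrps36. Mrps36 is named as a ribosomal protein, but its product is now known as a component of the 2-oxoglutarate dehydrogenase complex. It had the lowest FPKM of the 59 and, in the authors' deposited table, their largest q-value (0.0437).

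In the authors' deposited table at 0 min 48 of the 59 genes shared the smallest q-value of the table, 0.000118, as did 64.9% of all entries. In the authors' deposited tables at 15 and 120 min 31 of 48 and 26 of 48 genes had the smallest values, 0.000102 and 0.000198, as did 69.8% and 49.7% of all entries, so small q-values were common to the tables. The weakest at 15 min was Mrps17, with a log2 ratio of -0.25 and a q-value of 0.0183 in the authors' deposited table. At 120 min it was Mrps14, with a log2 ratio of 0.41 and a q-value of 0.0483 in the authors' deposited table.

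By symbol, 37 large-subunit genes were lower and 0 higher at 0 min, 23 lower and 2 higher at 15 min, and 6 lower and 21 higher at 120 min. For the small subunit the counts were 22 and 0, 20 and 3, and 9 and 12. Homologues of bacterial proteins gave 36 and 0, 27 and 4, and 7 and 20, and mitochondria-specific proteins gave 22 and 0, 16 and 1, and 8 and 13. The median log2 ratio at 120 min was 0.68 for large-subunit and 0.42 for small-subunit genes. Differences between these classes were not tested.

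Levels at 0 and 120 min were also set side by side within each line. Across the 34 genes listed at 0 and 120 min, the S51A level was higher at 120 min than at 0 min in 33, with a median log2 difference of 0.88 (1.83-fold). The WT level was lower at 120 min in 28 of the 34, with a median of -0.21. The ratio was therefore higher at 120 min in 33 of 34, with a median difference of 1.06 and a range from -0.19 to 2.19. Over 4099 genes listed at both times, the medians were -0.12 in WT, -0.23 in S51A and -0.06 for the ratio. Of the 4099, 68.2% were lower in WT at 120 min, 37.7% were higher in S51A and 46.1% had a higher ratio. The 4099 are genes matched by symbol to protein-coding transcripts of GENCODE M21 and above 0 FPKM in both lines at both times. In the 19 genes that ended higher the S51A median was 1.11 and the WT median -0.31, and in the 15 that stayed lower they were 0.50 and -0.11. Between 0 and 15 min the 43 genes listed at both times had a median of -0.23 in WT, with 41 lower, and 0.12 in S51A, with 36 higher. Over 6045 genes listed at both of these times, chosen in the same way, the medians were 0.01 and 0.02. Of these, 46.2% were lower in WT and 54.7% higher in S51A at 15 min. Normalization may have differed between tables, so differences between times within a line are set side by side only, while each ratio is taken within its table.

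**Figure D3:**
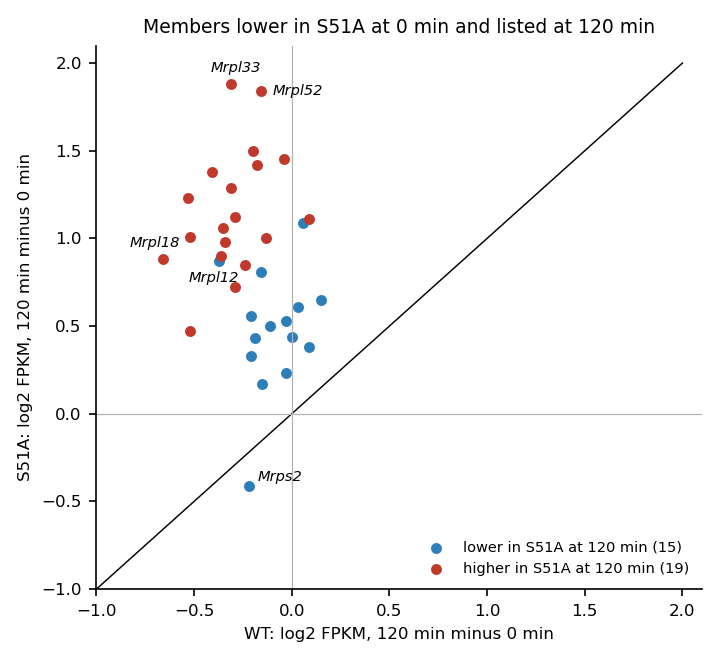
Log2 FPKM at 120 min minus that at 0 min in S51A (vertical) against WT (horizontal) for the 34 genes listed at both times, coloured by their call at 120 min, with the line of equal change in black. Of the 34 genes 33 lie above the line, and Mrps2 lies below it.

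The direction at 120 min went along with the length of the coding sequence. The median coding length, from GENCODE M21, was 918 nt for the 15 genes lower at 120 min and 429 nt for the 33 higher ones, with a median of 5.5 and 4 exons. Over the 34 genes the difference in log2 ratio between 0 and 120 min had a Pearson r of -0.75 and a Spearman rho of -0.70 with log coding length. Over the 4099 genes described above r was -0.61, so the relation was not limited to the mitochondrial ribosomal protein genes. With the length of the whole transcript r was -0.41 over the 34 and -0.63 over the 4099. The log2 ratio itself had an r of -0.17 with coding length at 0 min (59 genes) and of -0.69 at 120 min (48 genes). The genes of such a correlation share libraries, and values in FPKM are already divided by transcript length.

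The 4099 genes were divided by coding length into 5 classes of equal size. In the shortest class (111 to 774 nt) the median difference in log2 ratio was 0.82 over 796 other genes and 1.36 over 24 mitochondrial ribosomal protein genes. Of the 24, 18 were higher at 120 min, against 77.6% of the other genes. In the next class (777 to 1218 nt) it was 0.14 over other genes and 0.50 over 7, of which 1 was higher at 120 min, against 56.7% of the other genes. The last 3 genes fell in the class after it, with a median of 0.55 against -0.06. All 3 were lower at 120 min, while 47.4% of the other genes there were higher. In each of these classes the members' median difference was above that of the other genes, but the members started from lower ratios. All members in these classes were lower at 0 min, against 58.0%, 49.8% and 51.3% of the other genes. Their median log2 ratios at 0 min were -0.70, -1.17 and -1.04, against -0.41, 0.27 and -0.31. At 120 min the members' medians were below those of the other genes, at 0.68, -0.77 and -0.69 against 0.82, 0.55 and -0.44. Set by transcript length within each table, 70.5% of other genes in the shortest class were lower at 0 min, against 40 of 40 members, and 86.4% were higher at 120 min, against 24 of 33 members. How far length accounts for the directions was not tested.

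**Figure D4:**
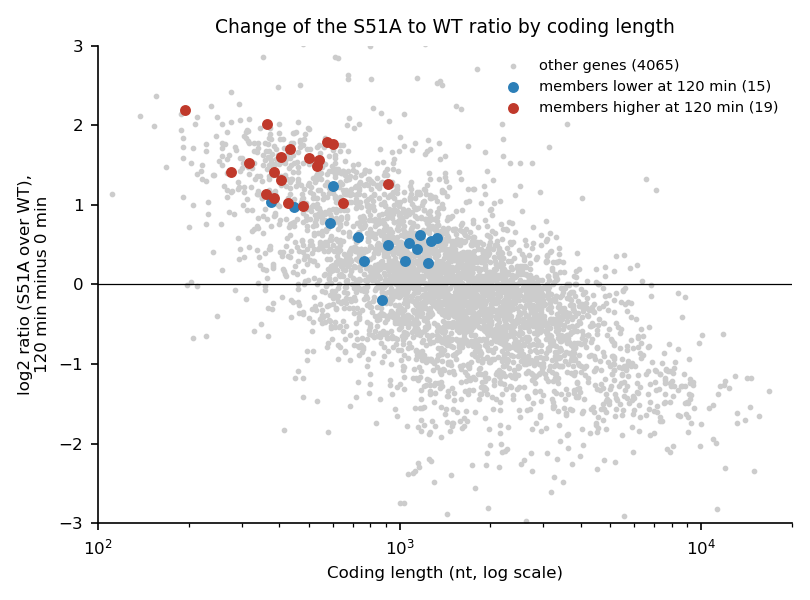
Difference in log2 ratio (S51A over WT) between 120 and 0 min against coding length in nt on a log scale, for other genes listed at both times (grey) and the 34 mitochondrial ribosomal protein genes (blue, lower at 120 min; red, higher at 120 min). Points beyond the axes are not drawn, and the red points lie to the left at short coding lengths while most blue points lie to the right.

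Calls in these tables also went along with chromosome. Chromosomes 3, 10, 14 and 19 had the smallest shares of other genes lower at 0 min, from 23.6% to 26.0%. They were not named beforehand, so the shares of other genes there are extreme by selection. At 0 min 7 of these genes on chromosomes 3, 10, 14 and 19 were listed and all 7 were lower, while 24.9% of 1308 other listed genes there were lower. Their median log2 ratio of -0.47 was smaller in size than the -0.95 of the 43 genes on chromosomes where over 50% of other genes were lower. At 120 min all 13 listed genes on chromosomes 3, 10, 14 and 19 were higher, as were 78.9% of other genes there. On the chromosomes with under 50% of other genes lower at 120 min, 24 of 25 of these genes were higher, against 68.1% of other genes there. On those with over 50% lower, 14 were lower and 9 higher, and 61.3% of other genes there were lower, so that split was close to the share of other genes. Median coding lengths in those last groups were 426 and 726 nt, so length and chromosome moved together, and the part of either in the direction of a gene was not tested.

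**Figure D5:**
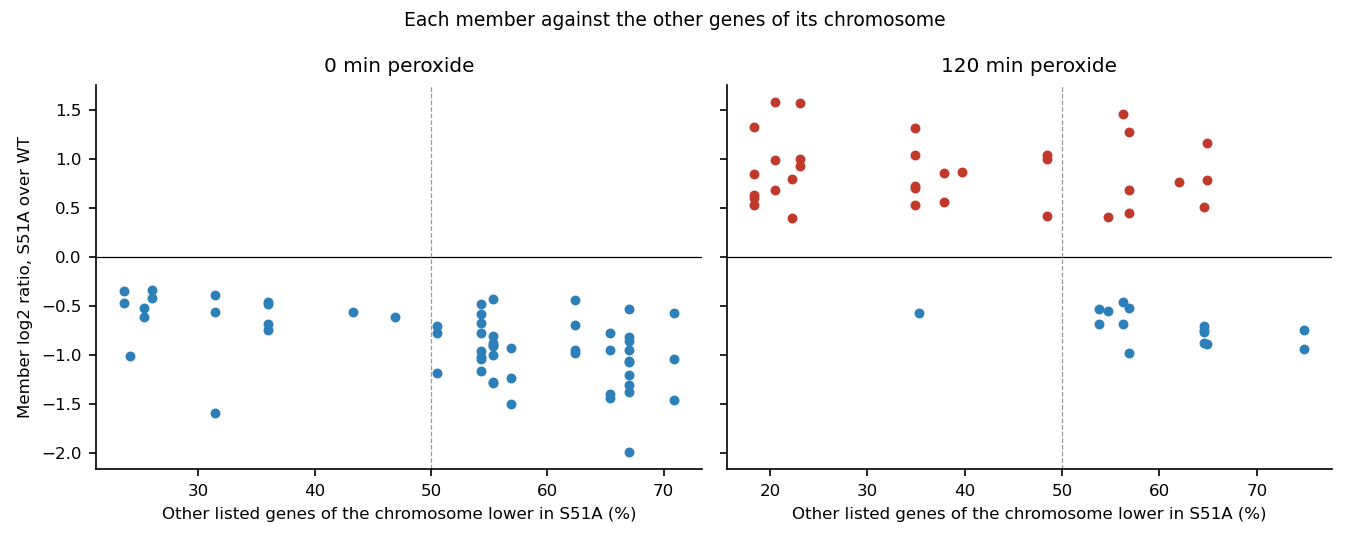
Log2 ratio (S51A over WT) of each listed mitochondrial ribosomal protein gene against the percentage of other listed genes on its chromosome that were lower, at 0 min (left) and 120 min (right), with a dashed line at 50%. At 0 min every gene is below 0, and at 120 min 14 of the 15 genes below 0 lie to the right of the dashed line.

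Many of these genes lie close to or across another gene. By GENCODE M21, 38 of the 73 overlapped another gene, 32 of them on the opposite strand, and 23 overlapped another protein-coding gene. Shares over all genes are not given here for these overlaps. The libraries were made with a directional kit, but nothing read here says whether counting used the strand, so levels of such genes are less certain. Reads may also have been shared with the pseudogenes that RefSeq lists. A coding neighbour transcribed away from a start within 1000 bases was found for 17 of 73 (23.3%), against 6.74% of 21819 protein-coding genes. Where gene and neighbour were both listed, they had the same direction in 5 of 9 pairs at 0 min, 3 of 8 at 15 min and 6 of 7 at 120 min. No share over other such pairs is given here. Of all entries 50.4%, 50.1% and 49.1% were lower at these times. Mrps18b and its neighbour Ppp1r10, which encodes a regulatory subunit of protein phosphatase 1, were both lower at each time, with Ppp1r10 at 21.1 and 17.5 FPKM in WT and S51A at 0 min. Mrpl51 and its neighbour Ncapd2, of the condensin complex, had opposite directions at 0 min, with Ncapd2 at 62.2 and 98.4 FPKM.

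Some subunits carry names outside the symbol rule, and 4 of 7 such symbols were lower and 0 higher at 0 min, with 4 and 0 at 15 min and 0 and 2 at 120 min. One of them, Ict1, is the older symbol of Mrpl58, a peptidyl-tRNA hydrolase built into the large subunit that rescues stalled ribosomes. It was at 98.4 and 41.4 FPKM in WT and S51A at 0 min and at 74.5 and 46.5 FPKM at 15 min. Chchd1, of the small subunit, was at 177 and 115 FPKM at 0 min and at 155 and 284 FPKM at 120 min, a turn like that of the 19 genes above. Dap3, a GTP-binding subunit of the small subunit, was listed at 120 min alone, at 21.1 and 29.0 FPKM.

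Translation factors listed at 120 min were all lower. Of 15 mitochondrial translation factors 5 were lower and 1 higher at 0 min, 7 and 0 at 15 min, and 3 and 0 at 120 min. Tufm, the elongation factor that brings charged tRNA to the ribosome, was at 58.9 and 22.3 FPKM in WT and S51A at 0 min, at 54.9 and 22.0 FPKM at 15 min, and at 55.7 and 26.2 FPKM at 120 min. Lrpprc, which stabilizes mitochondrial mRNAs, was at 58.9 and 25.8 FPKM, at 58.9 and 24.1 FPKM, and at 52.7 and 20.5 FPKM. Taco1, a translational activator, was the third gene lower at 120 min. Oxa1l, which inserts new proteins into the inner membrane, was the 1 higher at 0 min, by 1.26-fold.

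Of 28 assembly factors of the mitochondrial ribosome 13 were lower and 2 higher at 0 min, 11 and 3 at 15 min, and 5 and 3 at 120 min. The RNA helicase gene Dhx30 was at 51.3 and 24.4 FPKM in WT and S51A at 0 min and at 48.5 and 21.4 FPKM at 120 min. Rpusd4, a pseudouridine synthase, and Noa1, a GTPase known from small-subunit assembly, were lower at all 3 times as well. Gtpbp10, a GTPase of large-subunit assembly, was higher throughout, at 3.27 and 7.11 FPKM at 0 min and at 2.87 and 6.87 FPKM at 120 min. For mitochondrial transcription, DNA maintenance and their regulation, 17 gene symbols were looked up. Of these, 9 were lower and 0 higher at 0 min, 7 and 1 at 15 min, and 4 and 1 at 120 min. The higher one was Tfam, which packages mitochondrial DNA, at 27.3 and 41.4 FPKM at 120 min. Ppargc1a, a coactivator of mitochondrial gene programmes, was lower at each time, at 2.33 and 0.406 FPKM at 0 min and at 2.11 and 0.176 FPKM at 120 min.

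The other nuclear gene sets for ribosomes and respiration had the same majority direction at each time. Cytosolic ribosomal protein genes had 75 lower and 1 higher at 0 min, 54 and 8 at 15 min, and 1 and 51 at 120 min. Genes of oxidative phosphorylation subunits had 52 and 1, 24 and 19, and 3 and 51. Their median difference in log2 ratio between 0 and 120 min was 1.58 over 48 and 1.52 over 37 genes, against 1.06 over the 34 mitochondrial ribosomal protein genes. The mitochondrial ribosomal set kept 15 lower genes at 120 min where those sets had 1 and 3. Genes of those sets listed at 120 min also had shorter transcripts, with medians of 700 and 718.5 nt, against 1208 nt. The difference between sets, and the part of length in it, was not tested.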

How the data were processed

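RNA was sequenced as single reads of 75 nt from polyadenylated RNA, per the labels' protocols. STAR, Cufflinks, Cuffdiff and the build mm10 appear in the submitters' processing notes. Their versions and the gene annotation are not given in the sources used here. Per the file headers, the authors deposited a q-value, a log2 ratio and the log2 FPKM of both lines, with 1 value per gene and group. FPKM is 2 to the power of the deposited log2 FPKM, the ratio is S51A minus WT, and every entry counts as called, since the largest q-value deposited by the authors is 0.05. A further numeric column (1 per table) was not used. Samples were grouped by genotype and time from their labels, and samples could not be tested. Folds are ratios of the authors' group FPKM. Coordinates are mm10 positions from the tables, with 1 added to the start. Lengths, exons and neighbours are from GENCODE release M21, matched by symbol.

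Members and lists were chosen with earlier results of these data known. Values are given in full for the 6 most extreme ratios per direction and table, the 8 largest changes of ratio among genes listed at every time, genes whose call changed or went against the majority, the Mrps18 paralogues, and stalk, tunnel and catalytic genes. Calculations used Python 3.11.15 with pandas 2.3.3 and numpy 2.4.6 and were tested on simulated data. Alternatives were minimum folds of 1.5 and 2, a q-value of at most 0.001, at least 5 FPKM, a pseudocount of 1, centring, other subunits added and Mrps36 left out.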

Additional observations from a re-analysis of the deposited data

Results flagged for a closer look

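Of the mitochondrial ribosomal protein genes, 19 were lower in S51A at 0 min and higher at 120 min, and 8 were lower at 15 min and higher at 120 min. These are 55.9% of 34 and 34.8% of 23 listed at both times and lower at the first, against 20.2% of 2227 and 6.84% of 2618 over all genes. These stand out because the same contrast of the lines pointed opposite ways at 2 times. The 8 are among the 19. The turn was not particular to these genes. Cytosolic ribosomal protein genes had 75 lower and 1 higher at 0 min, and 1 and 51 at 120 min. Genes of oxidative phosphorylation subunits had 52 and 1, and then 3 and 51. Among other genes in the shortest class of coding length, 58.0% were lower at 0 min and 77.6% higher at 120 min. The difference between times was not tested, since the tables hold 1 value per group.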

How the results depend on the processing

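Medians are called moved when they shift by over 0.1 on the log2 scale, and counts when they differ by over 1.5 times. Of 72 alternative values of 10 results, 50 held, 22 moved and 0 reversed. This tally is no measure of robustness, because counts have no direction to reverse and some values could not move. The FPKM minimum removed none of these genes, and Mrps36 was not listed at 15 or 120 min. Filters that only remove genes could not alter the count of 0 genes higher at 0 min. With a minimum fold of 2, 21 genes were lower at 0 min, 8 lower and 0 higher at 15 min, and 0 lower and 11 higher at 120 min, with medians of -1.24, -1.20 and 1.27. With a minimum fold of 1.5, 22 were lower and 2 higher at 15 min, and medians were -0.89 at 15 min and 0.78 at 120 min. With a q-value of at most 0.001, 3 were higher at 15 min and 19 at 120 min, with medians of -0.66 and 0.84. These filters leave fewer genes. Centred on all listed genes, the medians at 0, 15 and 120 min were -0.60, -0.28 and 0.21, and the counts at 120 min, centred after the data were seen, were 31 higher and 16 lower. The difference between the medians at 0 and 120 min was 1.39, against 0.67 when centred on genes in both tables, 0.53 for genes listed at all 3 times and, added after the data were seen, 1.06 as the median of each gene's own difference and 1.44 when centred on the median difference of genes in both tables. The tables lack genes near a ratio of 0, so centring values lie at the edge of a gap. No paired analysis was possible because the tables hold 1 pooled value per group, and for the same reason no replicate could be left out. Depth is unknown, so what it limits cannot be given.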
